A study of Homo sapiens with 12 samples.

Results

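Sugar breakdown was followed in Caco-2, an established line from a human colorectal adenocarcinoma, through 33 genes picked by symbol: the carriers and enzymes of glucose uptake and glycolysis, lactate production and export, the non-oxidative and late oxidative pentose phosphate enzymes, and pyruvate dehydrogenase E1. All 33 were found among the 54553 genes of the deposited tables, and all 33 were among the 18047 genes with enough reads to be tested. The genes were picked for what they encode, and no measured value entered the choice rule. Earlier results of these data were known when they were chosen. Each of the 12 RNA-seq libraries came from wild-type cells, 3 per group, after 48 h of culture. The 4 groups were depleted medium with bafilomycin A1, depleted medium with vehicle, rich medium with bafilomycin A1, and rich medium with vehicle. Depleted medium was a glucose- and glutamine-free DMEM with 0.1 g/L glucose, 0.2 mM glutamine and 1% serum added back. Rich medium was EMEM with 1 g/L glucose, 2 mM glutamine and 20% serum. The 2 media thus differed in base formulation and serum as well as in glucose and glutamine, while pyruvate (1 mM) and non-essential amino acids (0.1 mM) were in both. Bafilomycin A1 was given at 100 nM; it blocks the V-ATPase, the pump that acidifies lysosomes. The labels do not state whether replicates were grown as separate cultures, so p-values here reflect sample-to-sample spread alone, and that spread may be technical.

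Glycolysis splits glucose into pyruvate in a preparatory phase that spends ATP and a payoff phase that returns it. Lactate dehydrogenase turns pyruvate into lactate, which leaves the cell through monocarboxylate carriers, whereas the pyruvate dehydrogenase complex passes it to mitochondrial oxidation. The pentose phosphate pathway branches off at glucose 6-phosphate and supplies NADPH and ribose. Many of these genes are textbook targets of the hypoxia-inducible factor HIF-1 and of MYC, and colon cancer lines are known for high glucose use and lactate release.

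Depth ranged from 12969814 reads, in replicate 1 of the rich-medium vehicle group, to 51649213, and the other 11 libraries held at least 33859998. The shallow library also held 393 CPM of the albumin gene ALB, against 7.15 to 28.9 CPM in the others. CPM values here are read counts scaled to library size with TMM factors. Among rich-medium bafilomycin A1 libraries, replicate 3 had a Spearman correlation across genes of 0.985 with each of the other 2 and of 0.987, 0.985 and 0.990 with the depleted-medium vehicle libraries. Calls that change when both libraries are left out are given beside the results. Epithelial markers were present in all libraries, with KRT8 at 693 to 5490 CPM and CDH1 at 1032 to 1980 CPM, while the differentiation markers KRT20 and FABP2 stayed at or below 0.502 CPM. The summed level of the 11 epithelial and enterocyte markers was 3170 to 3620 CPM in depleted medium with bafilomycin A1, 5010 to 5860 CPM in depleted medium with vehicle, 5780 to 7110 CPM in rich medium with bafilomycin A1 and 6860 to 9660 CPM in rich medium with vehicle. That order was carried mainly by KRT8 and KRT18. EPCAM went with it between the media under each treatment, and CDH1 overlapped between groups. ALPI ran the other way. It was at 33.6 to 38.1 CPM in depleted medium with bafilomycin A1 and 4.76 to 11.2 CPM in rich medium with vehicle. Under vehicle, HNF4A and CDX2 were also higher in depleted than in rich medium, without overlap. HNF4A was at 457.9 to 615.3 CPM against 300.2 to 345.7 CPM, and CDX2 at 117.8 to 152.7 CPM against 43.75 to 102.9 CPM. With bafilomycin A1, CDX2 was lower in depleted medium (74.05 to 89.49 against 108.9 to 165.6 CPM), and HNF4A overlapped. Among markers of other cell types, NEUROD1 was at 0 in every library, and PTPRC, an immune marker, did not pass 0.258 CPM. The 4 fibroblast markers, 3 of them tested, summed to 58.0 to 94.6 CPM in depleted medium with bafilomycin A1, 72.8 to 116 CPM in depleted medium with vehicle, 104 to 181 CPM in rich medium with bafilomycin A1 and 164 to 333 CPM in rich medium with vehicle. PDGFRA made up most of the sum where it was high, COL1A1 stayed between 19.3 and 32.4 CPM, and DCN did not pass 1.49 CPM. The 4 immune markers summed to 2.5 to 3.31, 4.04 to 6.11, 6.88 to 10.2 and 5.80 to 14.9 CPM in the same 4 groups, nearly all of it CD14. The epithelial, fibroblast and immune sums were thus lower in depleted than in rich medium under each treatment, with overlapping ranges for the immune sum under vehicle, as many of the genes below were, and their part in those genes' values was not tested.

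Per unit of gene length, GAPDH was the highest of the 33 members, at a mean of 2801 deposited TPM over the 12 libraries, and the glucose transporter gene SLC2A3 was next at 1074 TPM. That second place held over the pooled libraries and not in each group, since SLC2A3 averaged 233 TPM in depleted medium with bafilomycin A1, against 2019 TPM in rich medium with vehicle, and LDHB averaged 401 TPM in depleted medium with bafilomycin A1. ENO1, LDHB, TPI1, PKM and ALDOA followed, between 647 and 429 TPM. BPGM, which makes the red-cell effector 2,3-bisphosphoglycerate, was lowest at 3.61 TPM, and the regulatory enzyme genes PFKFB2, PFKFB3 and PFKFB4 lay between 15 and 9.45 TPM. Even BPGM had at least 78 reads in every library, so no value of a member rests on a handful of reads.

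Together the 33 members took 0.643% ± 0.0404 of all reads in depleted medium with bafilomycin A1, 0.908% ± 0.0707 in depleted medium with vehicle, 1.78% ± 0.468 in rich medium with bafilomycin A1 and 1.82% ± 0.0438 in rich medium with vehicle (SD, n = 3 each). Every library of depleted medium was below every library of rich medium. The closest were depleted vehicle replicate 2 at 0.989% and rich bafilomycin A1 replicate 3 at 1.31%. In bulk RNA, fewer cells of a type and less RNA per cell cannot be told apart.

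**Figure D1:**
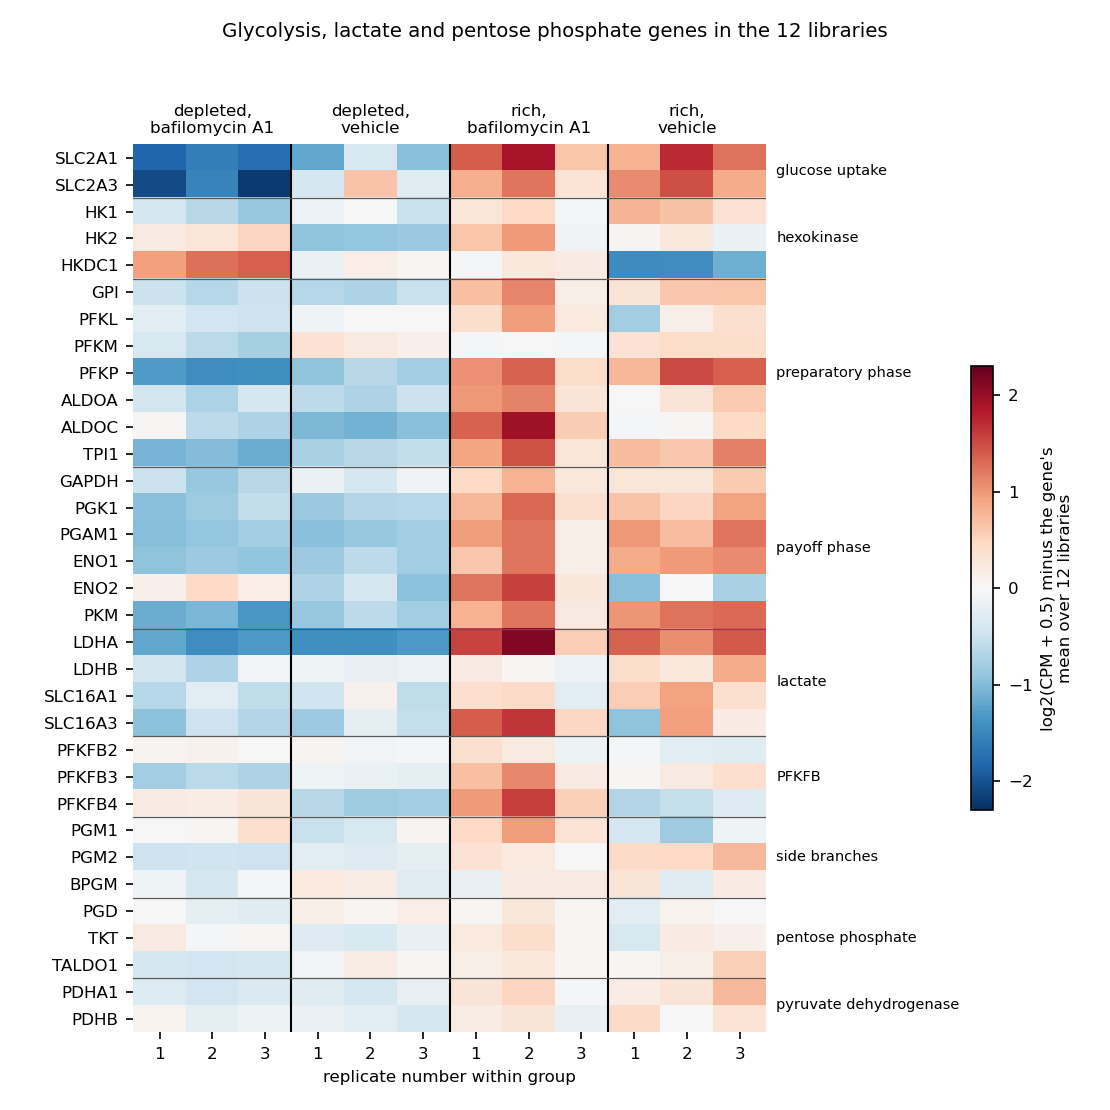
Colour shows log2(CPM + 0.5) of each of the 33 members minus that gene's mean over the 12 libraries, in rows ordered by pathway step and columns ordered by group and replicate. Most rows are blue in the 6 depleted-medium libraries and red in the 6 rich-medium ones, HKDC1 is red in depleted medium with bafilomycin A1 and blue in rich medium with vehicle, and the 3 pentose phosphate rows stay pale.

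Under vehicle, nutrient depletion lowered most of the glycolytic chain. Of the 33 members 20 fell, 1 rose and 12 were not called, with a median log2 fold change of -0.81 against 0.04 over all genes tested. A call means a Benjamini-Hochberg adjusted p under 0.05 over all 18047 genes in edgeR's quasi-likelihood test. By the same rule 30.9% of all genes were called, 15.5% higher and 15.4% lower. Members fell at every step tested from glucose uptake to lactate export, at pyruvate dehydrogenase and among the side branches, whereas no member of the PFKFB or pentose phosphate sets was called.

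LDHA, the muscle-type subunit of lactate dehydrogenase, showed the largest change. It had 118, 118 and 126 CPM in depleted medium, against 814, 666 and 838 CPM in rich medium. The groups lay far apart, and the fold change was -2.68 on the log2 scale (SE 0.289; adjusted p = 3e-05), a 6.39-fold lower level. SLC2A1 encodes GLUT1, the basal glucose transporter, and had 271, 479 and 317 CPM in depleted medium, against 1077, 2021 and 1471 CPM in rich medium. Its highest depleted library was below its lowest rich one, and it fell by 2.10 (SE 0.315; adjusted p = 0.00022).

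The promoters of LDHA (chr11:18394563-18408425) and SLC2A1 (chr1:42925353-42958868) are printed because these genes had the largest changes among members with a searched motif. The windows span 250 bases before to 50 after the annotated start, from RefSeq on GRCh38.p14. LDHA lies at chr11:18394313-18394612 on the plus strand and SLC2A1 at chr1:42958819-42959118 on the minus strand, each written 5′ to 3′. Capitals mark the E-box CACGTG, the core read by MYC and its relatives, and the HIF cores ACGTG and GCGTG, which read CACGT and CACGC when they lie on the other strand. Each CACGTG also holds ACGTG on both strands.
LDHA promoter: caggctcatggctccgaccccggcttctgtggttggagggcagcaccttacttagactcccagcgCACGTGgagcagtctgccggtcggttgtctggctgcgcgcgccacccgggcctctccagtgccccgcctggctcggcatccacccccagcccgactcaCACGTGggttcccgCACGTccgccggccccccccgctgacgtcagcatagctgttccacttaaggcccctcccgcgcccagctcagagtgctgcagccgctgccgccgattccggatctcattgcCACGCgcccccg
SLC2A1 promoter: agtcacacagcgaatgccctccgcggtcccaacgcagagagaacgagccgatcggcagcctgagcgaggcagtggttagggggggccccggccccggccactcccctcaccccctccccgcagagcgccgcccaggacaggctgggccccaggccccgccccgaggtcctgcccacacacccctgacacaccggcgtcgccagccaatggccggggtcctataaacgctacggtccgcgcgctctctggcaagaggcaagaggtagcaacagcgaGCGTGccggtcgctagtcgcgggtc
The LDHA window held 2 E-boxes and 1 GCGTG, and ACGTG matched 5 times, 4 of them within the E-boxes. The SLC2A1 window held 1 GCGTG and neither of the other motifs. Among RefSeq's promoters as a whole, 7.26% of 35116 windows held CACGTG, 21.4% held ACGTG and 36.5% held GCGTG. Windows were found for 30 of the 33 members, all but SLC2A3, SLC16A1 and PFKFB2, with 1 to 7 windows each. Of the members' 57 windows 14.0% held CACGTG, 38.6% held ACGTG and 43.9% held GCGTG. Members had more windows per gene than the 27305 genes with windows as a whole, which raises their counts by gene. By gene, CACGTG was present in at least 1 window of 8 of these 30 and of 8.78% of all 27305. ACGTG was present in 18 of the 30 and 24.9% of all, and GCGTG in 21 of the 30 and 40.6% of all. These are matches of letters in a window, and binding was not measured.

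Among the enzymes that trap and prepare glucose, the 3 hexokinase genes split. HK1, the housekeeping form, had 29.3, 32.7 and 22.7 CPM in depleted medium, against 56.1, 52.0 and 41.4 CPM in rich medium. HK2, the inducible form tied to mitochondria, had 35.4, 36.6 and 37.2 CPM in depleted medium, against 71.4, 80.9 and 60.9 CPM in rich medium. Both fell without overlap, by 0.82 for HK1 (SE 0.193; adjusted p = 0.0049) and by 0.96 for HK2 (SE 0.213; adjusted p = 0.0033). HKDC1, a more recently described hexokinase gene, had 46.6, 57.9 and 53.7 CPM in depleted medium, against 18.6, 18.9 and 23.4 CPM in rich medium. It was the 1 member that rose, by 1.38 (SE 0.163; adjusted p = 5e-05).

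HKDC1 (chr10:69220332-69267552) and HK1 (chr10:69270000-69401882) are neighbours in tandem, with 2.45 kb between the end of HKDC1 and the start of HK1. The pair moved in opposite directions with depletion although they adjoin. Reads of neighbouring genes on the same strand can run from one into the other, and that share cannot be read from gene-level tables.

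Phosphofructokinase, the committed step, also had members that differed. PFKP, the platelet-type gene, had 90.9, 112 and 102 CPM in depleted medium, against 297, 498 and 454 CPM in rich medium. It fell by 2.04 (SE 0.234; adjusted p = 4.5e-05), a 4.11-fold lower level. PFKL, the liver-type gene, had a log2 fold change of -0.01 (SE 0.244; adjusted p = 0.97), with 65.2 to 71.1 CPM in depleted medium against 40.1 to 90.6 CPM in rich medium. PFKM, the muscle-type gene, was at -0.17 (adjusted p = 0.37). Beside them GPI, which isomerises glucose 6-phosphate, fell by 1.15, the triose isomerase gene TPI1 by 1.51, and the aldolase genes ALDOA and ALDOC by 0.92 and 1.24 (adjusted p = 0.00038 to 0.0054).

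In the payoff phase 5 of 6 members fell. PKM, whose product makes pyruvate, fell by 1.95, the phosphoglycerate mutase gene PGAM1 by 1.88, the enolase gene ENO1 by 1.72 and the phosphoglycerate kinase gene PGK1 by 1.43 (adjusted p = 5e-05 to 0.00027). ENO2, the neuronal-type enolase, was not called at -0.17 (adjusted p = 0.70). GAPDH, often used as a reference gene, had 2166, 1811 and 2274 CPM in depleted medium, against 2924, 2882 and 3663 CPM in rich medium. It fell by 0.60 (SE 0.215; adjusted p = 0.045), and leaving out any 1 of 9 libraries (all but rich vehicle replicate 2 and rich bafilomycin A1 replicates 2 and 3) ended the call, at adjusted p = 0.052 to 0.11 or, without depleted vehicle replicate 2, 0.14.

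Of the genes for lactate handling, LDHB, which encodes the heart-type subunit, had 445, 417 and 434 CPM in depleted medium, against 635, 564 and 866 CPM in rich medium. It fell by 0.67 (SE 0.202; adjusted p = 0.020), and its call was lost without rich vehicle replicate 3 (adjusted p = 0.084) or depleted vehicle replicates 1, 2 or 3 (0.058, 0.060 and 0.052). SLC16A1, the gene of the lactate and pyruvate carrier MCT1, fell by 0.93 (SE 0.230; adjusted p = 0.0067). SLC16A3, the gene of the lactate exporter MCT4, had 9.04, 14.0 and 11.2 CPM in depleted medium, against 8.41, 32.1 and 18.8 CPM in rich medium. The groups overlapped through the shallow rich library, and SLC16A3 was not called at -0.81 (SE 0.382; adjusted p = 0.12). Without that library it was at -1.16 with adjusted p = 0.014, and without the low-count filter at -0.82 with adjusted p = 0.0011.

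SLC2A3 encodes GLUT3, a high-affinity glucose transporter. It had 1819, 3773 and 1957 CPM in depleted medium, against 5065, 6685 and 4315 CPM in rich medium. The groups did not overlap, and it fell by 1.09 (SE 0.322; adjusted p = 0.018). The call was lost without rich vehicle replicate 2 (adjusted p = 0.051), depleted vehicle replicate 1 (0.094) or depleted vehicle replicate 3 (0.073). SLC2A14 is a near-identical copy of SLC2A3, so the split of reads between them is uncertain.

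The fructose 2,6-bisphosphate enzymes set the pace of phosphofructokinase, and none of their 3 genes was called. Calls numbered 0 of 3 in edgeR, 0 of 3 at an unadjusted p under 0.05, and 0 of 3 in DESeq2. PFKFB3, the form with the strongest kinase activity, had 38.5, 37.1 and 35.3 CPM in depleted medium, against 41.7, 47.6 and 53.9 CPM in rich medium, at -0.37 (SE 0.192; adjusted p = 0.16). Its groups did not overlap, and without the 2 libraries that stood apart it was at -0.46 with adjusted p = 0.030. PFKFB4 was at -0.27 (adjusted p = 0.38) and PFKFB2 at 0.17 (adjusted p = 0.39).

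Nor were the pentose phosphate enzymes called. PGD, which makes NADPH and ribulose 5-phosphate, was at 0.17 with a 95% interval of -0.15 to 0.49. TKT, encoding transketolase, was at -0.27 (-0.65 to 0.12), and TALDO1, encoding transaldolase, at -0.21 (-0.53 to 0.11). Calls again numbered 0 of 3 in edgeR, 0 of 3 at an unadjusted p under 0.05 and 0 of 3 in DESeq2. The intervals exclude a drop as large as that of LDHA or PFKP.

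Of the side branches PGM2, which converts pentose and hexose phosphates, fell by 0.83 (SE 0.149; adjusted p = 0.00080), while PGM1, the link to glycogen, and BPGM were not called. Both genes of pyruvate dehydrogenase E1 fell. PDHA1, the alpha subunit, had 42.6, 39.1 and 45.8 CPM in depleted medium, against 58.9, 64.4 and 87.3 CPM in rich medium, and fell by 0.73 (SE 0.173; adjusted p = 0.0054). PDHB, the beta subunit, had 53.5, 49.1 and 45.2 CPM in depleted medium, against 80.5, 58.8 and 73.4 CPM in rich medium. It fell by 0.52 (SE 0.164; adjusted p = 0.025), and the call was lost without rich vehicle replicates 1 or 3 (adjusted p = 0.070 and 0.056) or depleted vehicle replicates 2 or 3 (0.066 and 0.085).

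**Figure D2:**
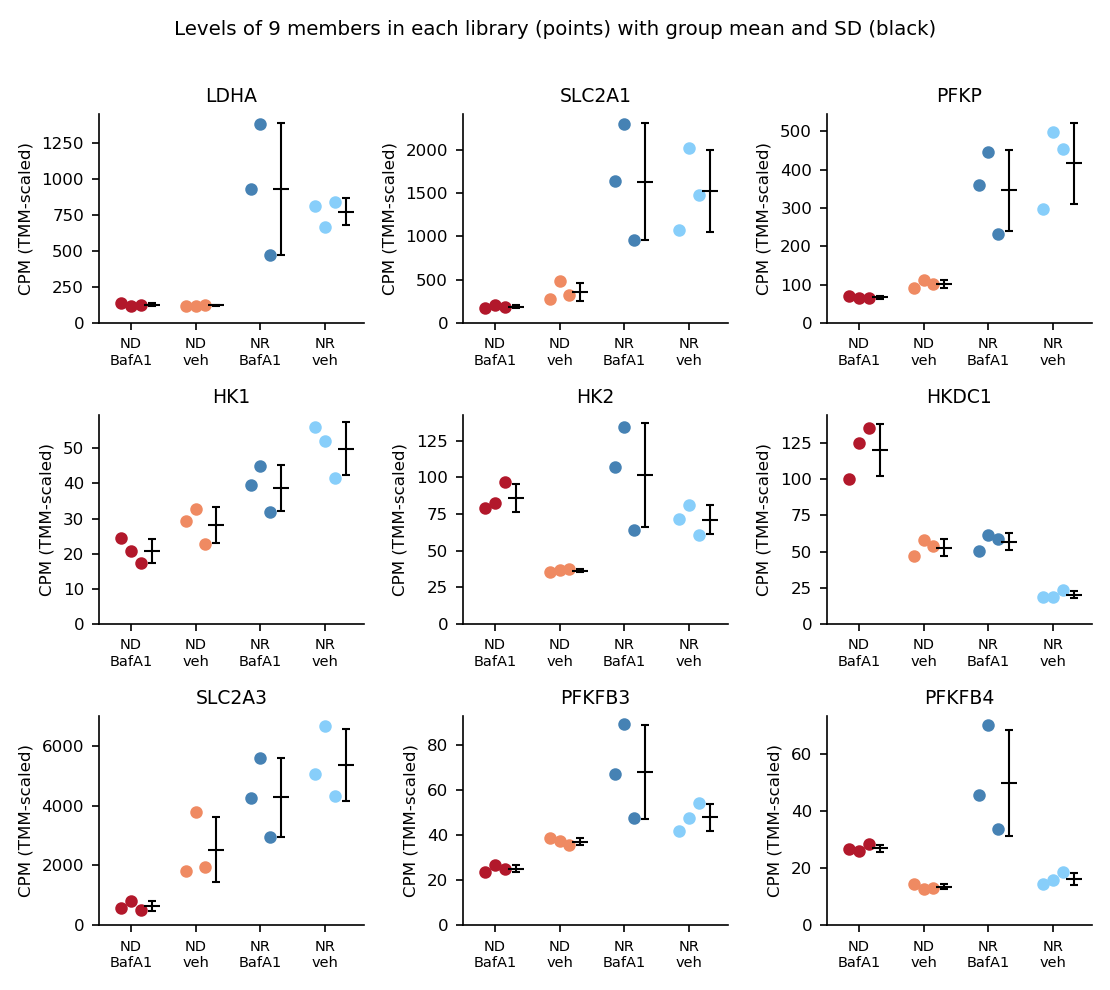
Points are TMM-scaled CPM of 9 members in each library, with ND for depleted and NR for rich medium, BafA1 for bafilomycin A1 and veh for vehicle; black marks are the group mean and SD of 3 libraries. LDHA, SLC2A1 and PFKP are low in all 6 depleted libraries, HKDC1 is lowest in rich vehicle and highest in depleted bafilomycin A1 libraries, and the rich bafilomycin A1 points of LDHA and SLC2A1 are widely spread.

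Depletion in the presence of bafilomycin A1 also lowered most of the set. Counts of calls do not compare the size of this response with that under vehicle, which the interaction below does. Here 24 of 33 members fell, 1 rose and 8 were not called, with a median log2 fold change of -0.90 against 0.01 over all genes, and 24.1% of all genes were called, 10.5% higher and 13.6% lower. SLC2A1 had 174, 204 and 184 CPM in depleted medium with bafilomycin A1, against 1634, 2302 and 958 CPM in rich medium with bafilomycin A1, and it fell by 3.12 (SE 0.328; adjusted p = 2.6e-05). LDHA had 137, 117 and 125 CPM against 930, 1383 and 470 CPM in the same order of groups, and it fell by 2.88 (SE 0.292; adjusted p = 2e-05). SLC2A3 had 575, 820 and 516 CPM in depleted medium with bafilomycin A1, against 4251, 5615 and 2968 CPM in rich medium with bafilomycin A1, and fell by 2.75 (SE 0.340; adjusted p = 8.2e-05).

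None of these 3 genes overlapped between the groups. For SLC2A1 and LDHA the depleted libraries lay close together and the rich ones were spread, while SLC2A3 was spread in both. Both depletion contrasts lowered the same 17 members, and 7.28% of all genes tested fell in both. HKDC1 rose in both, as 4.88% of all genes did, and was at 1.08 (SE 0.160; adjusted p = 0.00029) here. Another 7 members fell under bafilomycin A1 and were not called under vehicle, a pattern of 5.96% of all genes. These were PFKL, PFKM, ENO2, SLC16A3, PFKFB3, PFKFB4 and TALDO1, and whether the drug changed their response is answered by the interaction below.

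SLC16A3 had 8.39, 11.7 and 10.2 CPM in depleted medium with bafilomycin A1, against 44.1, 52.7 and 23.1 CPM in rich medium with bafilomycin A1. It fell by 1.99 (SE 0.390; adjusted p = 0.0023). PFKP fell by 2.38 and TPI1 by 2.03. The 8 members not called were HK2, LDHB, PFKFB2, PGM1, BPGM, PGD, TKT and PDHB. Of these, HK2, LDHB and PDHB were called lower under vehicle, and their interactions were not called (adjusted p = 0.16, 0.65 and 0.42). At the small end, TALDO1 had 62.7, 61.2 and 62.7 CPM with depletion, against 91.7, 99.3 and 85.7 CPM in rich medium, and fell by 0.57 (SE 0.150; adjusted p = 0.013). PFKM had 57.0, 47.8 and 43.6 CPM with depletion, against 71.7, 74.5 and 72.4 CPM in rich medium, and fell by 0.56 (SE 0.135; adjusted p = 0.0078). Neither pair of groups overlapped.

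HK2, with 78.8, 82.4 and 96.6 CPM in depleted medium with bafilomycin A1, against 107, 134 and 64.0 CPM in rich medium with bafilomycin A1, was not called at -0.24 (adjusted p = 0.44), and without rich bafilomycin A1 replicate 3 it was at -0.49 with adjusted p = 0.043. Of the calls in this contrast, PFKL and PFKFB4 were lost without rich bafilomycin A1 replicate 2 (adjusted p = 0.077 and 0.071), and TALDO1 without that replicate or depleted bafilomycin A1 replicate 2 (0.067 and 0.053). PDHA1 was lost without rich bafilomycin A1 replicates 1 or 2 or depleted bafilomycin A1 replicate 2 (0.056 to 0.10). SLC16A1 was lost without replicates 1 or 2 of the rich or 1 or 3 of the depleted bafilomycin A1 group (0.11 to 0.15). ENO2 was lost without any 1 of 7 libraries (0.053 to 0.25), namely rich bafilomycin A1 replicates 1 and 2, depleted vehicle replicates 1 and 3 and all 3 of depleted bafilomycin A1.

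**Figure D3:**
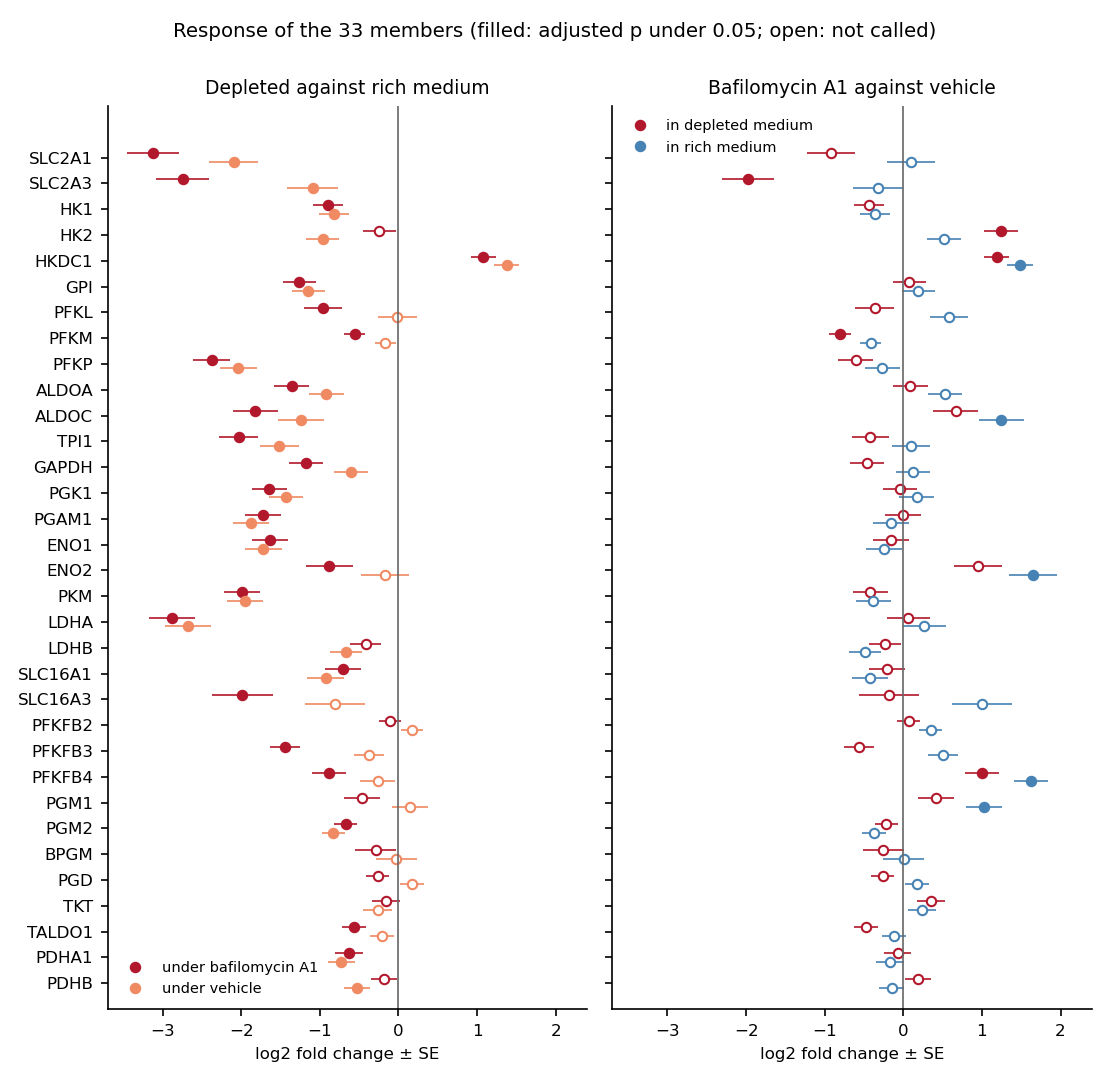
Left, log2 fold change ± SE of depleted against rich medium for each member, under bafilomycin A1 and under vehicle; right, bafilomycin A1 against vehicle in depleted and in rich medium. Filled points passed adjusted p under 0.05 in edgeR. Depletion shifts most members left, down to -3.12 for SLC2A1, while the drug moves few, and HKDC1 lies right of 0 in all 4 contrasts.

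Bafilomycin A1 in rich medium, set against the same vehicle libraries as depletion above, changed few of the genes. Of the 33 members 5 rose and 0 fell in edgeR, with a median log2 fold change of 0.12 against 0.02 over all genes. Of all genes 10.9% were called, 6.15% higher and 4.78% lower. The 5 member calls, all higher, stand beside 10.9% for either direction and 6.15% for higher alone. Neither difference was tested. At an unadjusted p under 0.05 there were 11 members higher and 3 lower, and DESeq2 called 6 higher and 1 lower. The 1 lower was PFKM, with 71.7, 74.5 and 72.4 CPM with bafilomycin A1, against 93.2, 99.4 and 98.7 CPM with vehicle. It was at -0.41 in edgeR (adjusted p = 0.063), and was called by the DESeq2 test (adjusted p = 0.014) and with the replicate block (adjusted p = 0.038).

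ENO2 had 48.5, 61.6 and 24.5 CPM with bafilomycin A1, against 10.3, 20.3 and 12 CPM with vehicle. It rose by 1.65 (SE 0.307; adjusted p = 0.0044). PFKFB4 had 45.5, 70.2 and 33.6 CPM with bafilomycin A1, against 14.2, 15.6 and 18.5 CPM with vehicle. It rose by 1.62 (SE 0.222; adjusted p = 0.00074), and neither gene's groups overlapped.

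HKDC1 had 50.3, 61.6 and 59.0 CPM with bafilomycin A1, against 18.6, 18.9 and 23.4 CPM with vehicle, and rose by 1.49 (SE 0.163; adjusted p = 0.00022). It was the steadiest of the 5 between replicates. ALDOC had 53.8, 81.1 and 31.2 CPM with bafilomycin A1, against 20.2, 21.1 and 28.4 CPM with vehicle, and rose by 1.25 (SE 0.286; adjusted p = 0.013). PGM1 had 30.2, 42.6 and 27.2 CPM with bafilomycin A1, against 16.6, 12.1 and 20.4 CPM with vehicle, and rose by 1.03 (SE 0.234; adjusted p = 0.012). The calls of ALDOC and PGM1 were lost without rich bafilomycin A1 replicate 2 (adjusted p = 0.067 and 0.061).

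The replicates of the drug group spread more than those of any other group. Over the 33 members the median coefficient of variation was 28.5% in rich medium with bafilomycin A1, against 10.1% in depleted medium with bafilomycin A1, 7.85% in depleted medium with vehicle and 18.2% in rich medium with vehicle. Replicate 2 was the highest of its group for 30 of the 33 members, and replicate 3 the lowest for 30. LDHA, for instance, was at 930, 1383 and 470 CPM in replicates 1, 2 and 3, a span wider than that of the vehicle group, and had a log2 fold change of 0.27 (SE 0.272; adjusted p = 0.58; 95% interval -0.31 to 0.84). Without replicate 3 the 5 calls held, and HK2, PFKFB3 and ALDOA were called as well, at 0.77, 0.71 and 0.75 (adjusted p = 0.018, 0.027 and 0.044). Without both libraries that stood apart the calls were the 5 with HK2 (0.77; adjusted p = 0.028), PFKFB3 (0.62; adjusted p = 0.045) and PFKFB2 (0.55; adjusted p = 0.031). SLC16A3 had 44.1, 52.7 and 23.1 CPM with bafilomycin A1, against 8.41, 32.1 and 18.8 CPM with vehicle, groups that overlapped, and was not called at 1.00 (SE 0.379; adjusted p = 0.11), while without rich vehicle replicate 2 it was at 1.53 with adjusted p = 0.017. The DESeq2 test (adjusted p = 0.044), the replicate block (0.031) and the fit without the low-count filter (0.00012) called it too. What set the order of the drug replicates was not tested.

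In depleted medium, bafilomycin A1 raised 3 members and lowered 2 of 33, and 28 were not called, with a median log2 fold change of -0.18 against -0.03 over all genes. Of all genes 11.4% were called, 5.5% higher and 5.91% lower. The count of members was larger in most other fits, at 14 with only the 6 libraries compared, 10 without the low-count filter, 10 without the 2 libraries that stood apart, 10 with the replicate number as a block and 9 in DESeq2, and each of these held the 5. HK2 had 78.8, 82.4 and 96.6 CPM with bafilomycin A1, against 35.4, 36.6 and 37.2 CPM with vehicle, and rose by 1.24 (SE 0.214; adjusted p = 0.0021). HKDC1 had 100.3, 125 and 135 CPM with bafilomycin A1, against 46.6, 57.9 and 53.7 CPM with vehicle, and rose by 1.19 (SE 0.160; adjusted p = 0.00047). PFKFB4 had 26.7, 25.8 and 28.3 CPM with bafilomycin A1, against 14.5, 12.8 and 13.0 CPM with vehicle, and rose by 1.00 (SE 0.219; adjusted p = 0.0089).

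In all 3 genes the lowest drug library stood well above the highest vehicle library. HKDC1 and PFKFB4 were thus called higher with the drug in both media, comparisons that share no library, as were 1.01% of all genes. With the drug and depletion together HK2 averaged 86.0 ± 9.39 CPM, against 71.1 ± 9.97 CPM in rich medium with vehicle (SD, n = 3 each), groups that were not compared by a test.

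SLC2A3 had 575, 820 and 516 CPM with bafilomycin A1, against 1819, 3773 and 1957 CPM with vehicle in depleted medium. It fell by 1.98 (SE 0.330; adjusted p = 0.0017), a 3.95-fold lower level. PFKM had 57.0, 47.8 and 43.6 CPM with bafilomycin A1, against 93.9, 85.8 and 80.0 CPM with vehicle, and fell by 0.81 (SE 0.136; adjusted p = 0.0018). SLC2A1 was not called at -0.92 (SE 0.305; adjusted p = 0.063), with 174, 204 and 184 CPM against 271, 479 and 317 CPM, groups that did not overlap. Without rich vehicle replicate 1, rich vehicle replicate 2 or rich bafilomycin A1 replicate 3, it passed at adjusted p = 0.047, 0.044 and 0.035.

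ENO2 stood just outside the threshold at 0.95 (adjusted p = 0.055), and passed without the same 3 libraries (adjusted p = 0.042, 0.031 and 0.021). TALDO1 was at -0.47 (adjusted p = 0.054), and passed without rich vehicle replicates 1, 2 or 3 (0.026, 0.042 and 0.021). PFKFB3, at -0.57 (adjusted p = 0.071), had 23.4, 26.6 and 24.9 CPM with bafilomycin A1, against 38.5, 37.1 and 35.3 CPM with vehicle, and passed without rich bafilomycin A1 replicates 2 or 3 (0.047 and 0.029). With the replicate block, in which same-numbered libraries of these 2 groups deviated together, SLC2A1 (-0.88; adjusted p = 0.0089), ENO2 (0.96; 0.0055), TALDO1 (-0.47; 0.034), PFKFB3 (-0.57; 0.041) and HK1 (-0.43; 0.043) were called. With only the 6 libraries compared PFKP (-0.61; adjusted p = 0.0037), TPI1 (-0.42; 0.024), PFKL (-0.37; 0.031), PKM (-0.43; 0.044) and ALDOC (0.66; 0.033) passed, as SLC2A1, ENO2, TALDO1 and PFKFB3 did. Without the 2 libraries that stood apart PFKP passed at -0.61 (adjusted p = 0.011), beside SLC2A1, ENO2, PFKFB3 and TALDO1 (0.010 to 0.024).

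LDHA was at 0.07 (SE 0.272; 95% interval -0.51 to 0.65), with 137, 117 and 125 CPM with bafilomycin A1, against 118, 118 and 126 CPM with vehicle, groups that overlapped.

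The interaction asked whether the bafilomycin A1 response differed between the media, taken as the depleted-medium response less the rich-medium response. In edgeR 2 of 33 members were called, both lower, and 0 were higher, with a median of -0.30 against -0.05 over all genes. Of all genes 6.18% were called, 2.35% higher and 3.83% lower, so the members' share was near the background. At an unadjusted p under 0.05 there were 1 higher and 5 lower, and DESeq2 called 0 higher and 2 lower.

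SLC2A3 had an interaction of -1.66 (SE 0.453; adjusted p = 0.043), from a drug response of -1.98 in depleted medium and -0.32 (SE 0.319; adjusted p = 0.56) in rich medium. PFKFB3 had an interaction of -1.07 (SE 0.272; adjusted p = 0.032), from -0.57 in depleted medium and 0.50 (SE 0.192; adjusted p = 0.10) in rich medium. In rich medium PFKFB3 was at 67.0, 89.2 and 47.3 CPM with bafilomycin A1, against 41.7, 47.6 and 53.9 CPM with vehicle. Both calls were fragile. Leaving out any library other than rich vehicle replicate 2 or rich bafilomycin A1 replicate 3 ended that of SLC2A3 (adjusted p = 0.055 to 0.12), and leaving out any but rich vehicle replicates 2 or 3 or rich bafilomycin A1 replicate 3 ended that of PFKFB3 (0.056 to 0.084). Without both libraries that stood apart SLC2A3 was at -1.82 with adjusted p = 0.064. SLC2A1, not called at -1.02 (adjusted p = 0.17), passed with the replicate block (-0.96; adjusted p = 0.045). Of the 7 members called with depletion under bafilomycin A1 alone, PFKFB3 had a called interaction and the other 6 did not (adjusted p = 0.12 to 0.35), although SLC16A3 passed without rich vehicle replicate 2 (-1.71; adjusted p = 0.043) and PFKL without rich vehicle replicate 3 (-1.19; adjusted p = 0.045). Without the low-count filter SLC2A1, PFKL and SLC16A3 passed (adjusted p = 0.024, 0.0099 and 0.0033).

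**Figure D4:**
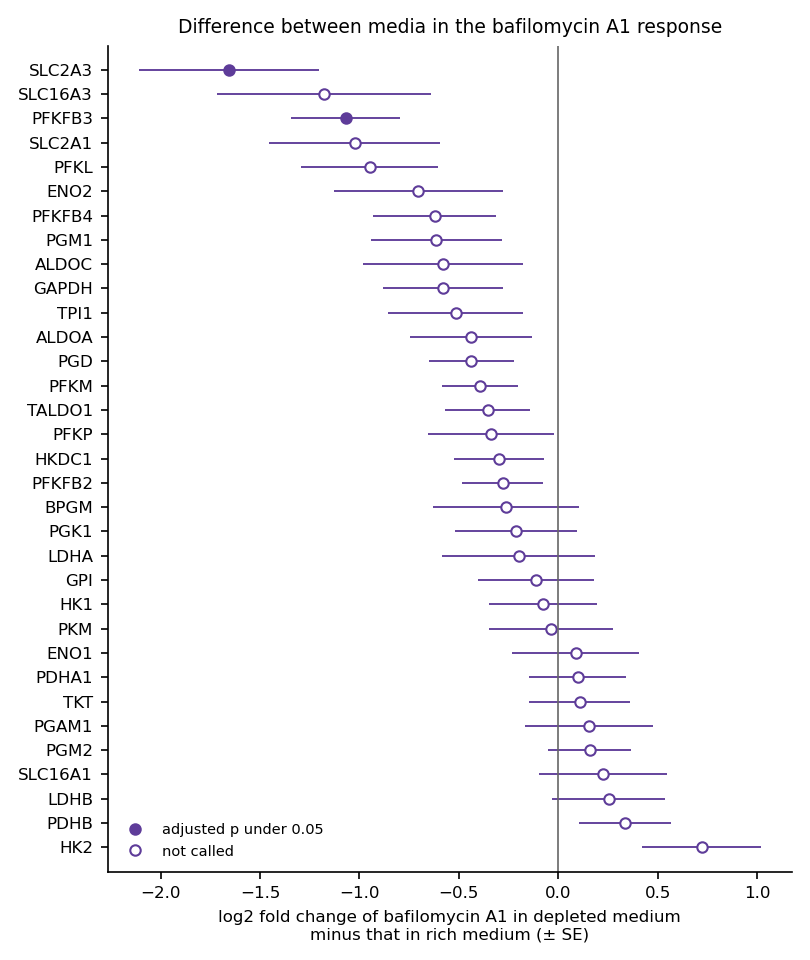
Each point is the log2 fold change of bafilomycin A1 in depleted medium less its value in rich medium, ± SE, for 1 member, ordered from lowest to highest; filled points passed adjusted p under 0.05 in edgeR. SLC2A3 at -1.66 and PFKFB3 at -1.07 are the 2 filled points, and SLC16A3 lies between them at -1.18 with a wider error (SE 0.537; adjusted p = 0.21).

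Over the 5 comparisons 29 of the 33 members were called at least once, as were 45.1% of all genes tested. The 4 never called were PGD and TKT of the pentose phosphate pathway, PFKFB2 and BPGM.

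The makeup of each enzyme family, as the share of the family's summed deposited TPM within a library, shifted with both factors. HKDC1 took 61.6% ± 3.45 of hexokinase TPM in depleted medium with bafilomycin A1, 50.8% ± 3.06 in depleted medium with vehicle, 36.5% ± 7.36 in rich medium with bafilomycin A1 and 18.0% ± 4.07 in rich medium with vehicle (SD, n = 3 each). HK1 ran the other way, at 10.9% ± 2.91, 27.1% ± 3.77, 24.4% ± 0.886 and 43.5% ± 3.50 in the same order of groups. HK2 took 27.5% ± 1.31, 22.1% ± 1.80, 39.1% ± 7.38 and 38.5% ± 2.70 in that order, close to HK1 in rich medium with vehicle. HKDC1 held the largest share in all 6 depleted libraries. Per reads without regard to length, HK2 was above HK1 in all 3 rich vehicle libraries, so the order of HK1 and HK2 there depends on the scale. The shares of a family sum to 100% in every library, so they are not independent, and no test was made on them.

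PFKP held 42.5% ± 1.55 of phosphofructokinase TPM in depleted medium with bafilomycin A1, 42.6% ± 2.83 in depleted medium with vehicle, 68.2% ± 4.33 in rich medium with bafilomycin A1 and 73.7% ± 2.35 in rich medium with vehicle. LDHA made up 16.9% ± 3.26, 13.6% ± 0.621, 49.6% ± 11.7 and 38.6% ± 2.71 of lactate dehydrogenase TPM in these 4 groups, LDHB holding the rest. Per reads without regard to length, LDHA averaged 772 CPM and LDHB 688 CPM in rich medium with vehicle, with LDHB higher only in replicate 3. Which subunit leads there thus depends on the scale. PFKFB4 had 29.7% ± 1.72 and 32.1% ± 3.99 of PFKFB TPM with bafilomycin A1 in depleted and rich medium, against 15.9% ± 0.151 and 17.3% ± 0.822 with vehicle in depleted and rich medium. Its share followed the drug and differed little between the media. SLC16A3 was at 25.2% ± 3.25 of the MCT1 and MCT4 pair in rich medium with bafilomycin A1, and at 12.7% ± 0.665, 12.4% ± 1.40 and 11.5% ± 4.12 in depleted medium with bafilomycin A1, depleted medium with vehicle and rich medium with vehicle.

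**Figure D5:**
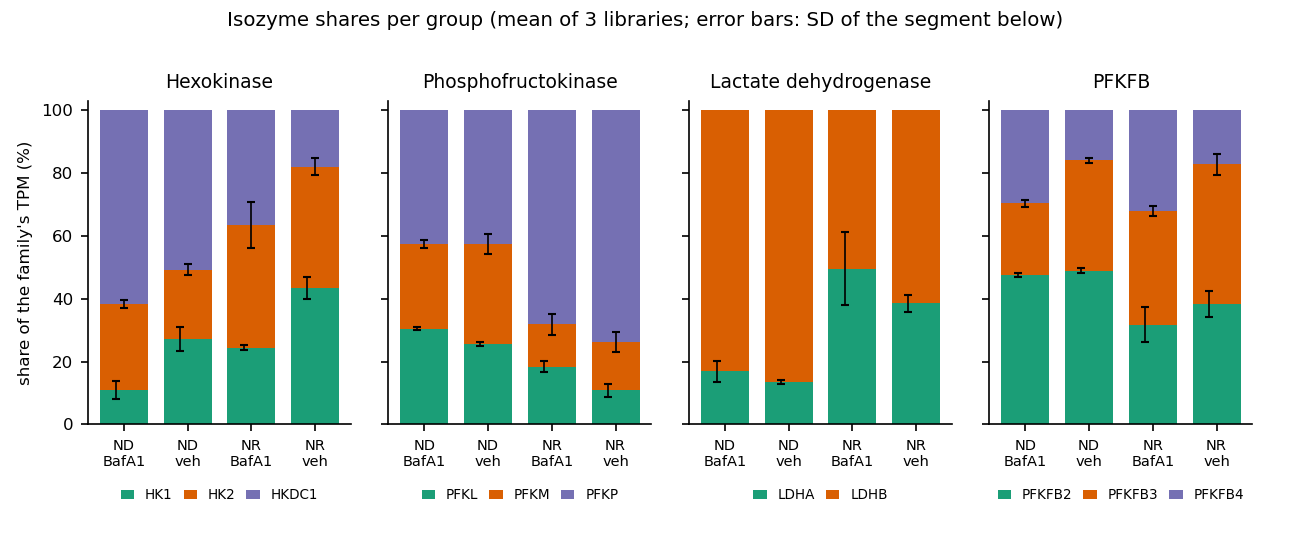
Stacked bars give each gene's mean share (%) of the summed TPM of its family in the 4 groups, with error bars for the SD over 3 libraries of the segment below them. HKDC1 grows to 61.6% of hexokinase TPM in depleted medium with bafilomycin A1, PFKP and LDHA shrink in both depleted groups, and PFKFB4 widens in both drug groups.

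Genes around the pathway, taken from lists of neighbouring functions, moved in a more mixed way with depletion under vehicle. The shares to set beside these lists are 15.5% of all genes higher and 15.4% lower, and no difference from them was tested. Of 9 tested other pentose phosphate genes 3 rose and 5 fell, among them H6PD, the enzyme of the endoplasmic reticulum, at 1.81 (adjusted p = 5.1e-05) and the phosphoribosyl pyrophosphate synthetase gene PRPS2 at -1.23 (adjusted p = 0.00032). Of 6 gluconeogenesis genes 2 rose, the mitochondrial PEP carboxykinase gene PCK2 at 0.83 (adjusted p = 0.00072) and the pyruvate carboxylase gene PC at 0.97 (adjusted p = 0.0024), and 1 fell. FBP1 was not called at -0.15 (adjusted p = 0.92), with 4.17 CPM in the shallow rich library against at most 1.71 CPM in the other 11.

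Of 12 genes for pyruvate entry into mitochondria 2 rose and 4 fell with depletion, with DLAT, the acetyltransferase of the same complex, at -1.08 (adjusted p = 0.00087), the inhibitory kinase gene PDK2 at 1.17 (adjusted p = 0.0012) and PDK1 at -0.76 (adjusted p = 0.028). PDK4 was not called at -1.51 (SE 1.17; adjusted p = 0.35), with 3.87 CPM in the shallow library and at most 0.568 CPM in the others. Of 14 other hexose transporter genes 6 rose and 1 fell, and the smallest adjusted p belonged to SLC2A10 at 1.77 and SLC5A9 at 2.62 (0.00075 and 0.00094). Of 9 other monocarboxylate carrier genes 4 rose, including SLC16A4 at 1.37 and SLC16A5 at 0.89 (adjusted p = 0.00021 and 0.00059), opposite to SLC16A1. In the glycogen list 1 of 17 rose, PPP1R3B, a targeting subunit for glycogen synthase, at 1.00 (adjusted p = 0.00014). Of 7 other glycolytic isozyme genes 1 rose and 2 fell, with the D-lactate dehydrogenase gene LDHD at 1.82 (adjusted p = 0.0024) and TIGAR, a fructose bisphosphatase, at -0.65 (adjusted p = 0.0050).

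Among 14 regulators of glycolytic transcription 6 rose and 4 fell with depletion. TXNIP, a glucose-responsive inhibitor of glucose uptake, had 3.61 ± 0.544 CPM in depleted medium, against 28.4 ± 8.13 CPM in rich medium (SD, n = 3 each), and fell by 2.98 (adjusted p = 4.5e-05). MLXIPL, which encodes the glucose sensor ChREBP, was at 1.71 (adjusted p = 0.00014), MYC at -1.20 (adjusted p = 0.0010), and HIF1A was not called at -0.33 (adjusted p = 0.27). HIF targets outside glycolysis did not move as a block with depletion. Of 19 tested 6 rose and 5 fell, with NDRG1 at 2.09 (adjusted p = 2.4e-06) and EGLN3 at -2.47 (adjusted p = 2.1e-05).

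With depletion under bafilomycin A1, 1 of these HIF targets rose and 9 fell, while TXNIP fell by 2.18 (adjusted p = 0.00030), MYC by 1.29 (adjusted p = 0.00086) and PDK1 by 0.81 (adjusted p = 0.024). Over all genes 10.5% rose and 13.6% fell in this comparison, and the difference was not tested.

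With bafilomycin A1 in rich medium 8 of these 19 HIF targets rose and 1 fell, with NDRG1 at 2.11 (adjusted p = 8.5e-06) and BHLHE40 at 2.29 (adjusted p = 0.00038). Over all genes 6.15% rose and 4.78% fell in this comparison, and the difference was not tested. Of the regulators 4 of 14 rose, among them EPAS1, the gene of HIF-2 alpha, at 1.23 and MLXIPL at 1.94 (adjusted p = 0.00038 and 0.00039), while MYC and HIF1A were not called. PDK1 rose by 1.07 (adjusted p = 0.013) and PCK2 by 0.78 (adjusted p = 0.0045). In depleted medium, where the drug raised 5.5% of all genes and lowered 5.91%, it raised 4 of the 12 genes for pyruvate entry. Among them were the pyruvate carrier gene MPC1 at 1.43 (adjusted p = 0.0013), the phosphatase gene PDP2 at 0.83 (adjusted p = 0.0025) and PDK1 at 1.02 (adjusted p = 0.014). TXNIP rose by 1.40 (adjusted p = 0.013). Of the other hexose transporters 1 rose and 4 fell, with SLC2A14, the copy of SLC2A3, at -1.82 (adjusted p = 0.0016). SLC2A14 also had a called interaction of -1.76 (SE 0.409; adjusted p = 0.024), beside that of SLC2A3. The split of reads between these copies is uncertain, so the interaction of SLC2A14 is not separate evidence for that of SLC2A3.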

How the data were processed

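Per the labels' protocols, total RNA was depleted of ribosomal RNA and made into stranded Illumina libraries. The submitters' processing notes name DRAGEN and GRCh38, with no version or role. The deposited table of each library gives an estimated count, a TPM value and a gene length (per the file headers). It lists 54553 genes, and 5.08% of the deposited estimated counts were not whole. No source used here gives the strand setting, the annotation or the rule for shared reads, so antisense and near-identical genes are uncertain. Pseudogenes named after members held at most 1.37% of the parent's reads. Deposited TPM served for levels per length and shares within a library.

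Counts were rounded, filtered with filterByExpr (minimum count 10, minimum total 15) and scaled by TMM. One edgeR 4.0.16 fit (R 4.3.3) of the 12 libraries, with a mean per group, robust dispersion and quasi-likelihood tests on 8 residual degrees of freedom, gave 5 comparisons. The call threshold was an adjusted p of 0.05 (Benjamini-Hochberg, 18047 genes). Standard errors came from the fold change and F statistic. The test was checked on simulated counts.

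The members, lists, alternatives and naming rule were chosen with earlier results of these data known. The rule gave library values for 11 panel genes (SLC2A1, SLC2A3, HK1, HK2, PFKP, PFKFB3, PFKFB4, LDHA, LDHB, SLC16A3, PDHA1) and, per comparison, for the called members with the 3 highest and 3 lowest fold changes and at least 5 CPM. ALB and, beside SLC2A3, SLC2A14 were named after their values were seen. From each neighbouring list it allowed up to 2 called genes with the smallest adjusted p and at least 1 CPM, and it always named TXNIP, MYC, HIF1A, PDK1, PDK4, PCK2, FBP1 and TIGAR; 1 other gene it names is not reported here. Values of those lists are given mainly for 3 comparisons. Alternatives were DESeq2 1.42.0 size factors and test, no low-count filter, fits of 6 libraries, the replicate number as a block, a minimum fold of 1.5, each library left out, 2 libraries left out, and shares from CPM. Coordinates and promoters are RefSeq's, on GRCh38.p14, matched by symbol. A series-wide count table that holds some of the genes was not used. Between the depleted groups, deviations of same-numbered libraries from their group means correlated over 0.1 in all 3 pairs (0.205 to 0.450). Between the vehicle groups all 3 pairs did so too (0.204 to 0.499). The main fit and its p-values held no pairing in any comparison, and the block entered only as an alternative. Over all group pairs, 10 of 18 correlations passed 0.1 (from -0.146). By mean correlation with libraries of the other groups, 11 of 12 libraries were closest to their own number.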

Additional observations from a re-analysis of the deposited data

Results flagged for a closer look

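Among the 33 members, 2 had a bafilomycin A1 response that differed between the media by a direct test of the difference (the interaction term of the edgeR fit), a share no larger than the 6.18% of all genes called. For SLC2A3 the depleted-medium response less the rich-medium response was -1.66 on the log2 scale (SE 0.453; adjusted p = 0.043). The drug lowered it in 3 of 3 depleted-medium libraries relative to every vehicle library, while the rich-medium groups overlapped. For PFKFB3 the difference was -1.07 (SE 0.272; adjusted p = 0.032), with all drug libraries below all vehicle libraries in depleted medium and overlapping groups in rich medium. Leaving out any 1 of 10 libraries ended the SLC2A3 call and any 1 of 9 the PFKFB3 call.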

How the results depend on the processing

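Depletion under vehicle called 17 to 23 members in every alternative, against 21, and 3747 to 6504 genes in all, against 5577. The same 17 members were called throughout, and no called member changed sign in any comparison. For bafilomycin A1 in rich medium the count over all genes was 2990 with the DESeq2 test, 496 with only 6 libraries and 1010 without the 2 libraries that stood apart, against 1971, and 1012 to 2656 with single libraries left out; members numbered 8 without those 2 libraries and 3 to 8 with single libraries left out, against 5. In depleted medium members numbered 9 with the DESeq2 test, 10 without the low-count filter, 14 with only 6 libraries and 10 without the 2 libraries, against 5, and 5 to 8 with single libraries left out. All genes numbered 4259 with only 6 libraries and 3444 without the 2, against 2058, and 878 to 3074 with single libraries left out. Depletion under bafilomycin A1 called 2346 to 5499 genes with single libraries left out, against 4352. For the interaction the count over all genes was 2093 with the DESeq2 test and 1792 without the filter, against 1116, and 393 to 1844 with single libraries left out; members numbered 5 without the filter, 1 without the 2 libraries and 0 to 3 with single libraries left out, against 2. The cause of these shifts was not tested, beyond the smaller number of samples where libraries were left out. With the replicate number as a block, bafilomycin A1 in depleted medium called 10 members and the interaction 1969 genes; in depletion under vehicle the block changed no member's call. Family shares from CPM in place of TPM moved beyond 1 SD in 52 of 76 values, by up to 14.5 percentage points (LDHA in rich medium with vehicle). Leaving out 1 of 3 libraries cannot move a group mean beyond 1 SD, so that rule says nothing about single libraries. The largest such shift was 6.13 percentage points (LDHA in rich medium with bafilomycin A1). At 3 libraries per group, a gene that was not called may still have changed.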
